A study of Mus musculus with 2 samples.

Results

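The genes described here are 10 that are widely used to define haematopoietic stem cells or are needed for their self-renewal: Hlf, Mecom, Erg, Mllt3, Msi2, Fgd5, Procr, Ly6a, Slamf1 and Esam. They were taken by symbol from the gene names deposited with both matrices, which hold 32285 genes, and all 10 were found there and counted in both libraries. Both libraries came from mouse bone marrow cells transduced with a vector that carries the leukaemia-associated RUNX1-S291fs mutant together with GFP. One library was made from cells of wild-type (WT) mice and the other from cells of Phf6 knockout (KO) mice, so the RUNX1 mutant is shared by both groups and Phf6 genotype is what differs. Sorted GFP+ cells had been transplanted into recipient mice, and GFP+ cells without lineage markers (Lin-) were sorted from recipient marrow 8 weeks later for droplet single-cell sequencing. How many mice entered each library, their age and strain, and whether they were pooled were not given in the sources used here. With 1 library per genotype there is no error between mice, no p-value was computed, and each interval below is an exact 95% interval for counting error only.

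Haematopoietic stem cells stay largely quiescent and maintain a programme of transcription factors that is shut as cells commit to a lineage. Hlf, Mecom and Erg belong to that programme, Mllt3 and Msi2 keep it going through transcription elongation and mRNA translation, and Procr, Ly6a, Slamf1 and Esam encode surface proteins with which stem cells are sorted. Several of these genes also work outside the stem cell: Slamf1 and Esam are made by megakaryocytes, Ly6a by lymphocytes, and Mecom, Erg and Msi2 are recurrent oncogenes in myeloid leukaemia.

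Hlf and Slamf1 were highest in different lineages of these cells, and the bases just upstream of their start sites are shown for that reason. Promoter sequences came from a RefSeq table (build GRCm38.p6), which matched 8 of the 10 genes with 14 start sites. The 250 bases before each start were searched on both strands for the letters of 4 motifs of blood cell regulators. These were TGTGGT for RUNX factors, then GATAA for GATA factors, then AGGAAG for ETS factors and CAGCTG for E-box factors. Their letters were chosen with the windows in view, no match overlapped another, and matches are in capitals.
Hlf (chr11:90390918-90391167, minus strand): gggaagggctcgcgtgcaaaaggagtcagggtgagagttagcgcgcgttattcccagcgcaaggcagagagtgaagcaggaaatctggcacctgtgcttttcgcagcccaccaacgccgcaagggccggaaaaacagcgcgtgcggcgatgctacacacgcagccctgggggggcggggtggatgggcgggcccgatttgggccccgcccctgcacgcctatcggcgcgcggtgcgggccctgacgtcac
Slamf1 (chr1:171766882-171767131, plus strand): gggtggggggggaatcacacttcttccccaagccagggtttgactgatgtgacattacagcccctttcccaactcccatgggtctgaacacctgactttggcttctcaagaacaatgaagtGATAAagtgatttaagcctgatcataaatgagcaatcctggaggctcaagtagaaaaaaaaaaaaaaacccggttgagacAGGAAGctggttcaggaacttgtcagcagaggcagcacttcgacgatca
The Hlf window is rich in G and C (67.2%) and holds none of the 4 words, while the Slamf1 window (47.2% G and C) holds 1 GATA and 1 ETS word. Across the 14 windows, GATA occurred in 4 windows of 3 genes, ETS in 3 windows of 3 genes, the E-box in 2 windows of 2 genes and RUNX in 0. Among all 32851 windows of this length in the table, the shares were 22.6%, 29.5%, 13.001% and 14.05%. The words describe these letters only and were not tied to any measured binding.

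The WT library held 5287 cell barcodes with 131667969 unique molecular identifiers (UMIs, counted RNA molecules) and the KO library 5260 barcodes with 120408100, and 10 barcodes occurred in both. After filtering, 4478 WT cells (median 24814 UMIs) and 4709 KO cells (median 21421 UMIs) remained. Levels are given as UMIs of a gene per 1000000 UMIs (CPM). The deleted gene, Phf6, had 41.8 CPM in the WT library against 20.6 in the KO library, a log2 ratio of KO over WT of -1.02, so the KO library still held Phf6 reads, and where on the gene they fall was not analysed here. In basophil or mast cell-like cells 97 WT and 71 KO UMIs of Phf6 gave 49.0 and 49.7 CPM. Runx1 stood at 911 and 1185 CPM, and vector transcripts were not counted apart here. The cells were clustered without the 10 genes, into 23 clusters that were named from markers that also leave these genes out. Clusters 0, 6 and 9 took the name HSC/MPP-like (stem cells and multipotent progenitors) from markers such as Angpt1, Adgrl4 and Meis1. Cluster 0 (299 WT and 737 KO cells) was led by B3galt1, Tox and Ror1, cluster 6 (296 and 256) by Jam3, Mycn and Psd3, and cluster 9 (254 and 257) by cell division genes such as Pimreg and Nusap1. Cluster 1 (460 and 440 cells, led by Fgf3, Cd200r4 and Cpa3) also carried HSC/MPP markers, but has a mast cell marker on top and was left unnamed.

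The genes separated into 3 patterns across the marrow. Hlf, Mecom, Erg, Fgd5 and Procr had their highest level in cluster 0 in both libraries, among clusters of at least 50 cells in the library concerned. Slamf1 and Esam peaked in megakaryocyte-like cells. Mllt3, Msi2 and Ly6a had 2 or more high points in unrelated lineages. Against all other cells of the same library, 6 of the 8 genes tested at 10 CPM or more were at least 2-fold higher in HSC/MPP-like cells of WT, where 4.85% of all genes were, and 8 of 9 in KO, where 7.06% were. In KO the 8 include Fgd5, which was tested only through its HSC/MPP-like level (25.4 CPM, against 2.71 in other cells).

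**Figure D1:**
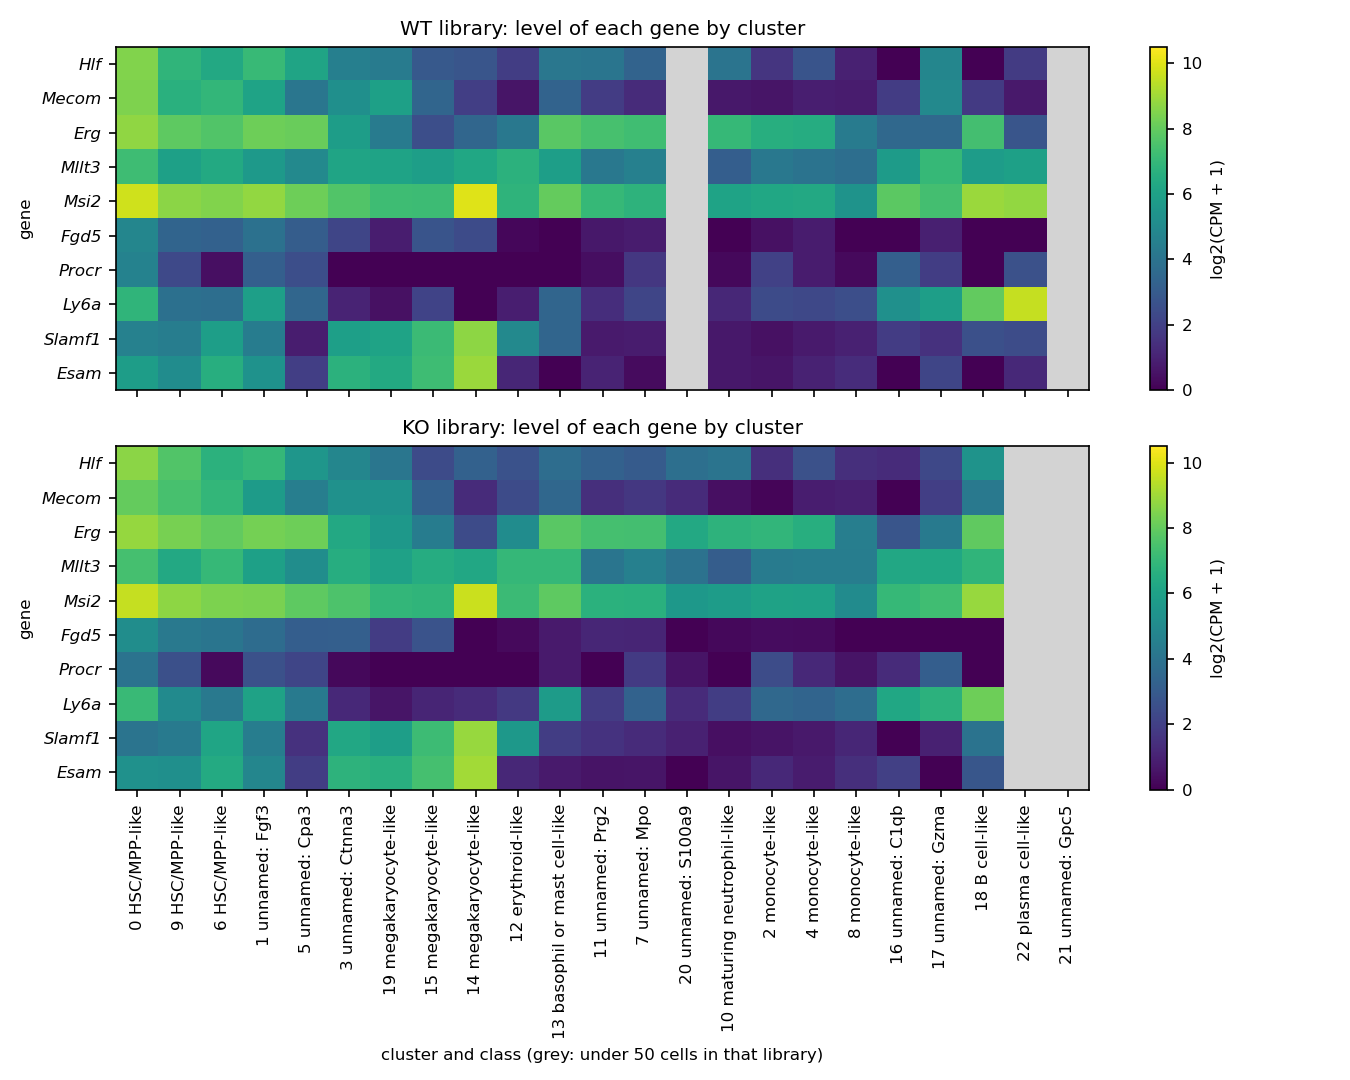
Level of each gene, as log2(CPM + 1) in colour, in every cluster (columns) of the WT library (top) and the KO library (bottom); grey columns hold under 50 cells in that library. Hlf, Mecom, Erg and Fgd5 are brightest at the left, in the HSC/MPP-like clusters, Slamf1 and Esam in megakaryocyte-like cluster 14, and Ly6a in B cell-like and plasma cell-like cells.

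Hlf (ENSMUSG00000003949, GRCm38 chromosome 11, 90336536 to 90390895, minus strand) encodes a PAR bZIP transcription factor that keeps stem cells quiescent and is lost at commitment. Cluster 0 held it at 365 CPM (349 to 382) in WT and 409 CPM (398 to 421) in KO. Cluster 1 followed in WT with 135 CPM and cluster 9 in KO with 203 CPM. Monocyte-like cells held 3.48 and 3.09 CPM and erythroid-like cells 2.76 and 5.25. Hlf was thus concentrated in cluster 0, which, with 6.68% of WT and 15.7% of KO cells, supplied 34.2% and 55.8% of all Hlf UMIs. With each cell thinned to 5000 UMIs to equalise depth, Hlf was detected in 76.5% of WT and 69.4% of KO cells of cluster 0. The same share was 0.985% and 1.23% in monocyte-like cells, and how much of it came from free RNA was not tested. Before thinning, those 4 shares were 91.0%, 84.5%, 6.49% and 6.44%.

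Mecom (ENSMUSG00000027684, chromosome 3, 29951296 to 30548008, minus strand) encodes the zinc finger factor EVI1 and its longer MDS1-EVI1 form, which 3′ counting does not separate. Its contrast with the rest of the marrow was 14.5-fold in WT and 19.1-fold in KO for HSC/MPP-like cells against other cells. Cluster 0 held 358 CPM (343 to 375) in WT and 259 CPM (249.4 to 268) in KO. Megakaryocyte-like cells held 33.7 and 18.9 CPM and monocyte-like cells 0.712 and 0.572. Mecom was therefore nearly silent in monocytes and low but present in the megakaryocyte branch. After thinning it was detected in 37.8% of WT and 40.8% of KO HSC/MPP-like cells against 0.123% and 0.411% of monocyte-like cells.

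Erg (ENSMUSG00000040732, chromosome 16, 95359169 to 95586593, minus strand) encodes an ETS factor required for stem cell maintenance. It was spread more widely than Hlf or Mecom. Cluster 0 held 426 CPM in WT and 459 in KO, maturing neutrophil-like cells 128 and 109.9, monocyte-like cells 77.5 and 86.8, and basophil or mast cell-like cells 224 and 221. Among named classes with cells in both libraries, erythroid-like cells (17.6 and 33.8 CPM) and megakaryocyte-like cells (12.5 and 27.9) were lowest. Plasma cell-like cells, found in WT only, held just 9 Erg UMIs, and the unnamed C1qb-led cluster 16 held 4 in each library. The monocyte-like class was uneven, with 103 of its 1959 WT and 140 of its 2581 KO Erg UMIs in cluster 8. HSC/MPP-like cells exceeded other cells 2.43-fold in WT and 2.88-fold in KO, and only 32.8% and 43.9% of Erg UMIs came from them.

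Mllt3 (ENSMUSG00000028496, chromosome 4, 87769925 to 88033364, minus strand) encodes AF9, a reader of acylated histones that recruits elongation factors and sustains human stem cells in culture. Cluster 0 held 150.2 CPM (140.0 to 161) in WT, which overlapped the 129 CPM (109 to 152) of the Gzma-led cluster 17. In KO cells cluster 0 held 167 CPM and cluster 17 held 75.4. Erythroid-like cells held 105 CPM in WT and 126 in KO. The erythroid-like cells of WT were 6.01% of cells and supplied 26.4% of Mllt3 UMIs, close to the 30.2% from HSC/MPP-like cells.

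Msi2 (ENSMUSG00000069769, chromosome 11, 88339382 to 88718513, minus strand) encodes an RNA-binding protein that controls translation and the balance of self-renewal and differentiation. Its highest level was not in the stem-like clusters. Megakaryocyte-like cluster 14, a low-RNA cluster led by Slc6a4 and Tubb1 with a median of 4413 UMIs, held 1022 CPM (948 to 1100) in WT and 816 CPM (750.2 to 886) in KO. Cluster 0 followed with 863 and 755 CPM, an interval (739 to 771) that overlaps cluster 14 in KO. B cell-like cells held 486 and 475 CPM and monocyte-like cells 70.2 and 57.3.

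Fgd5 (ENSMUSG00000034037, chromosome 6, 91978878 to 92076004, plus strand) encodes a guanine nucleotide exchange factor used as a stem cell reporter and also active in endothelium. It was sparse, with 509 WT and 833 KO UMIs in all cells. Cluster 0 held 27.1 CPM (22.9 to 31.9) in WT and 34.0 CPM (30.8 to 37.6) in KO, with cluster 1 next in WT (14.01 CPM) and cluster 9 in KO (17.97 CPM). Monocyte-like cells held 0.475 and 0.202 CPM, and no UMI was seen in 66 WT and 51 KO B cell-like cells. Fgd5 was thus highest in the same clusters as Hlf. The 8 endothelial markers summed to 147 CPM in WT and 155 CPM in KO HSC/MPP-like cells, with Cdh5 and Stab2 at 0 in WT, and their part in the Fgd5 level was not tested.

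Procr (ENSMUSG00000027611, chromosome 2, 155751117 to 155755471, plus strand) encodes the endothelial protein C receptor EPCR, a marker of the most potent stem cells. Only 329 WT and 373 KO UMIs were counted. Cluster 0 held 23.9 CPM in WT and 14.8 CPM in KO, and supplied 38.9% and 45.6% of these UMIs. Megakaryocyte-like and erythroid-like cells had none in either library. Cluster 6, which shares the HSC/MPP-like name, had 2 WT and 1 KO UMIs of Procr. Hlf (78.9 and 105 CPM) and Mecom (124 and 124 CPM) were also below their cluster 0 levels in cluster 6.

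Ly6a (ENSMUSG00000075602, chromosome 15, 74994877 to 74998031, minus strand) encodes Sca-1, the surface antigen of the Lin- Sca-1+ Kit+ sort and an interferon-inducible gene. Its highest level lay in 53 WT plasma cell-like cells, at 772 CPM (729 to 817), which supplied 41.1% of the Ly6a UMIs of the WT library from 1.18% of its cells. The KO library had no plasma cell-like cells. B cell-like cells held 248 CPM in WT and 288 in KO, and cluster 0 held 114 and 137 CPM. Within the HSC/MPP-like class the gene was uneven, with 12.9 and 18.1 CPM in cluster 6. How reads shared with related Ly6 genes were counted was not given in the sources used here.

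Slamf1 (ENSMUSG00000015316, chromosome 1, 171767127 to 171801184, plus strand) encodes CD150, the SLAM receptor that enriches stem cells when CD48 is absent and that megakaryocyte and erythroid progenitors also carry. Megakaryocyte-like cluster 14 held 424 CPM (377 to 476) in WT and 472 CPM (422 to 526) in KO, and cluster 15 held 139.7 and 146 CPM. Cluster 0 held only 23.7 and 15.5 CPM, below cluster 6 with 58.7 and 71.0. HSC/MPP-like cells exceeded other cells by 1.74-fold in WT and 1.37-fold in KO. That contrast was under 2-fold in both libraries, and it put Slamf1 above 91.9% of genes in WT and 73.1% in KO.

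Esam (ENSMUSG00000001946, chromosome 9, 37528078 to 37538319, plus strand) encodes an endothelial cell-selective adhesion molecule found on stem cells and platelets. It followed Slamf1, with 489 CPM in WT and 523 in KO in cluster 14 and 149 and 166 in cluster 15. The Ctnna3-led cluster 3, which carries megakaryocyte markers but is unnamed, held 106 and 109 CPM. HSC/MPP-like cells held 58.8 and 47.0 CPM, and monocyte-like cells 0.949 and 1.14. Erythroid-like cells separate Esam from Slamf1, with 1.18 and 1.26 CPM of Esam but 29.9 and 47.3 CPM of Slamf1.

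Likeness between profiles was measured as Pearson's r of log2(CPM + 1) over the 23 clusters, both libraries summed. The clusters share 2 libraries and differ in depth, so r is a description. They include low-RNA cluster 21 (41 WT and 46 KO cells, median 1853 UMIs), which the ranking of levels left out. It held 33 WT and 19 KO UMIs of Hlf and 3 and 4 of Fgd5, and its weight on r was not tested. Hlf went with Fgd5 (0.86) and Mecom (0.79), and Slamf1 with Esam (0.87). Procr went with Ly6a (0.66) and against Slamf1 (-0.29). Outside the set, the 10 genes closest to the mean standardised profile were Stxbp4 (0.93), B3galt1 (0.89), Gimap6 (0.89), Angpt1 (0.85), Nxph1 (0.85), Trp53bp1 (0.85), Gimap1 (0.84), Zfp521 (0.84), Csgalnact1 (0.83) and 2900026A02Rik (0.83). Angpt1 was also one of the markers that named the class. Closest to single genes were Trmt10a (0.84) for Hlf, Nxph1 (0.93) for Mecom, Krt18 (0.90) for Erg, Tspan13 (0.91) for Mllt3 and Vgll4 (0.88) for Msi2. The closest gene was Stxbp4 (0.87) for Fgd5, Flt3 (0.80) for Procr, Cdc42se2 (0.88) for Ly6a, Gp5 (0.97) for Slamf1 and Trpc6 (0.95) for Esam. Gp5 encodes a platelet glycoprotein, so the nearest neighbour of Slamf1 here is a megakaryocyte gene.

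Stem cell sorting relies on several of these proteins in 1 cell, so detection was counted within cells, each thinned to 5000 UMIs. Of the 836 WT and 1235 KO HSC/MPP-like cells deep enough for this, 209 WT cells and 391 KO cells (31.7%, 29.1 to 34.3) held at least 5 of the 10 genes, and the WT share had an interval of 22.1% to 28.1%. In cluster 0 the shares were 52.7% (46.8 to 58.5) in WT and 41.2% (37.6 to 44.8) in KO. The order of the libraries was thus opposite in the class and in its leading cluster, and cluster 0 made up 35.2% of the WT class and 59.0% of the KO class. Cluster 9 had 7.91% and 19.5%, cluster 6 had 11.8% and 16.4%, and cluster 1 had 11.5% and 9.79%. In monocyte-like cells 0 of 812 and 0 of 974 cells reached 5 genes, which allows a share of up to 0.453% and 0.378%. The largest number of genes in a thinned cell was 9 in each library.

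**Figure D2:**
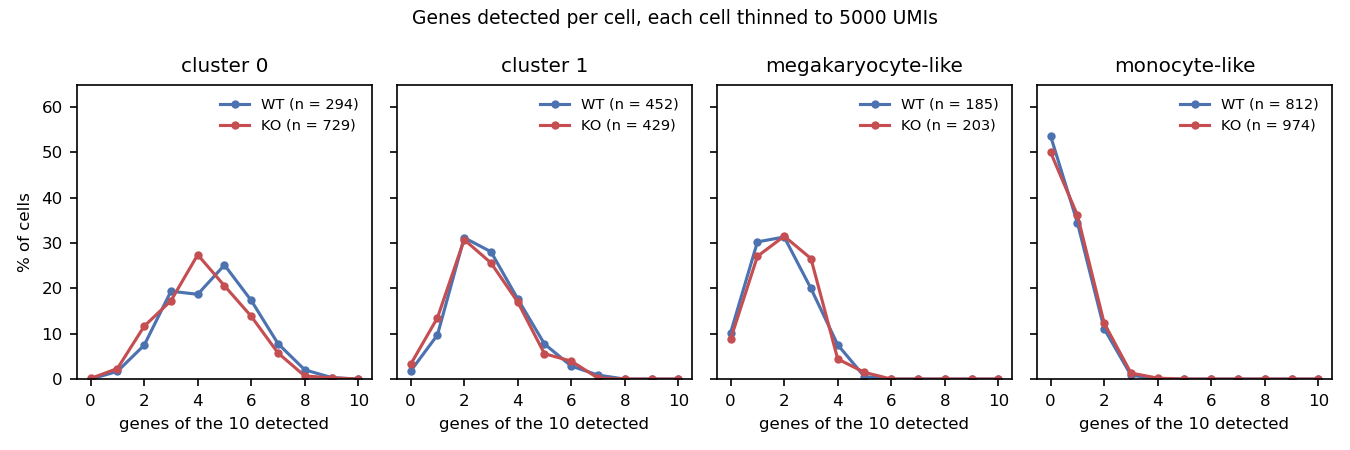
Share of cells (%) by how many of the 10 genes were detected after thinning to 5000 UMIs, for cluster 0, the Fgf3-led cluster 1, megakaryocyte-like and monocyte-like cells; blue is WT, red is KO. Cluster 0 has the most genes per cell, with a median of 5 in WT and 4 in KO, and 53.6% of WT monocyte-like cells have none.

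Hlf and Mecom met in the same cell more often than their separate shares give. In HSC/MPP-like cells 207 WT and 377 KO cells held both, where independent detection would give 142 and 278. Within cluster 0 the excess was smaller, with 145 WT and 290 KO cells against 133 and 244. Over all cells the counts were 280 and 429. Cluster 0 held 51.8% of these double-positive cells in WT and 67.6% in KO, and cluster 1 held 20.4% and 9.09%. Among pairs with at least 10 cells by independence in HSC/MPP-like cells, the median ratio of observed to independent was 1.17 in WT, with 36 of 40 pairs above 1, and 1.08 in KO, with 36 of 42. Within cluster 0 alone the medians were 1.03 (29 of 39 pairs above 1) and 1.07 (33 of 40), so in WT the excess was smaller inside cluster 0 than in the class.

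Among pairs with at least 5 cells by independence, Procr and Ly6a had the highest ratio in WT HSC/MPP-like cells, 20 cells against 6.15 by independence, and in KO 24 cells against 12.8. Of the Procr-positive cells, 86.5% in WT and 89.6% in KO also held Hlf. Mecom with Procr gave 31 cells against 13.99 in WT and 36 against 19.6 in KO. The class pools cluster 0 with cluster 6, which has almost no Procr, and within cluster 0 the excess was smaller. There Procr and Ly6a shared 19 cells against 12.5 in WT and 23 against 16.3 in KO, and Mecom and Procr 29 against 20.7 and 33 against 20.7.

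Slamf1 met some of these genes less often than by independence in the class, and fewer of them in cluster 0 alone. In HSC/MPP-like cells Fgd5 and Slamf1 shared 6 WT cells where independence gives 8.90, and 6 KO cells where it gives 15.6. Procr and Slamf1 shared 4 cells against 5.31 and 2 against 5.13. Erg and Slamf1 had ratios of 0.865 and 0.910. Within cluster 0, Procr and Slamf1 shared 4 cells against 3.93 in WT and 2 against 2.48 in KO, Ly6a and Slamf1 had ratios of 1.27 and 1.19, and Mecom and Slamf1 shared 24 against 19.5 and 30 against 20.2. Fgd5 and Slamf1 shared 5 against 4.49 in WT and 3 against 6.34 in KO there. All 4 sort markers Slamf1, Esam, Procr and Ly6a met in 1 WT and 1 KO cell at this depth, so their joint detection could not be compared. The transcription and RNA regulators Hlf, Mecom, Erg, Mllt3 and Msi2 met in 78 WT and 153 KO HSC/MPP-like cells, against 24.8 and 70.5 by independence. Within cluster 0 alone they met in 62 WT and 127 KO cells, against 44.2 and 84.5, a smaller excess.

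**Figure D3:**
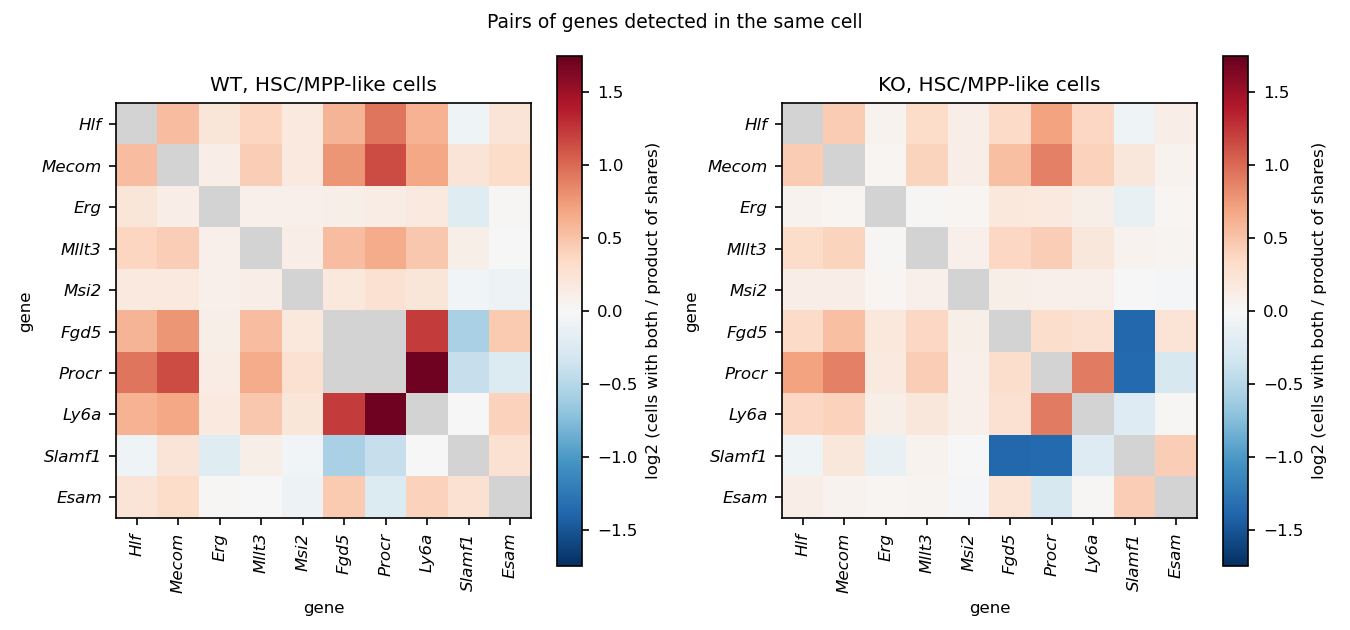
For each pair of genes in HSC/MPP-like cells thinned to 5000 UMIs, the colour is the log2 of cells with both genes over the product of the 2 shares, in WT (left) and KO (right); grey marks pairs with under 5 cells by independence. Red squares include Hlf with Mecom, Mecom with Procr and Procr with Ly6a, and the Slamf1 row is pale or blue against Fgd5 and Procr.

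The comparison of KO with WT asked whether the stem cell programme differs without Phf6 in cells that carry the RUNX1 mutant. Over all cells, Hlf was the 1 gene of 8 tested (at 10 CPM or more over both libraries) that was at least 1.5-fold higher in KO, where 2.04% of 8584 genes were, and 0 were 1.5-fold lower, where 1.25% were. Hlf went from 48.1 CPM in WT to 76.6 in KO, a log2 ratio of 0.67 (0.62 to 0.72). Mecom went from 39.7 to 52.3 CPM (0.40), Erg from 140.5 to 183 (0.38), Mllt3 from 51.0 to 60.9 (0.26) and Ly6a from 24.7 to 29.5 (0.26). Msi2 (222 and 224 CPM), Slamf1 (21.4 and 21.5) and Esam (27.03 and 27.3) had log2 ratios of 0.02, 0.01 and 0.02. Fgd5 and Procr lay under 10 CPM, and Fgd5 went from 4.28 to 7.56 CPM (0.82, interval 0.66 to 0.98) and Procr from 2.77 to 3.38 (0.29, 0.07 to 0.51). The median over the 8 genes was 0.26, against 0.06 over all genes.

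Within HSC/MPP-like cells, Hlf, Fgd5 and Ly6a were at least 1.5-fold higher in KO, 3 of 9 genes tested, where 4.22% of 8659 genes were, and 0 were lower, where 1.42% were. With clusters 0, 6 and 9 weighted alike 0 of the 9 passed, with log2 ratios of 0.36 for Hlf, 0.58 for Fgd5 and 0.40 for Ly6a. Cluster 0 was 35.2% of the class in WT and 59.0% in KO. Ly6a went from 40.6 to 80.5 (log2 0.99, 0.87 to 1.11). Fgd5 went from 13.99 to 25.4 (0.86) and Hlf from 172 to 284 (0.73). Mllt3 (0.53, 92.1 to 133 CPM), Erg (0.45, 276 to 375), Mecom (0.21, 177 to 205) and Msi2 (0.14, 517 to 570.1) were higher by less. Slamf1 and Esam were lower, from 33.2 to 27.4 CPM (-0.27, interval -0.43 to -0.12) and from 58.8 to 47.0 (-0.32, -0.44 to -0.20). Over 11 alternatives Hlf, Erg, Mllt3, Fgd5 and Ly6a were higher in each and Esam was lower in each. Mecom (-0.09 to 0.49), Msi2 (-0.10 to 0.09) and Slamf1 (-0.43 to 0.08) took both directions: with the clusters weighted alike the 3 gave -0.07, -0.10 and 0.02, Mecom gave -0.09 without cluster 9 and Slamf1 gave 0.08 without cluster 0. Megakaryocyte markers in the same cells summed to 1474 CPM in WT and 1148 in KO and lymphoid progenitor markers to 57.6 and 183 CPM, and their part in these differences was not tested.

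**Figure D4:**
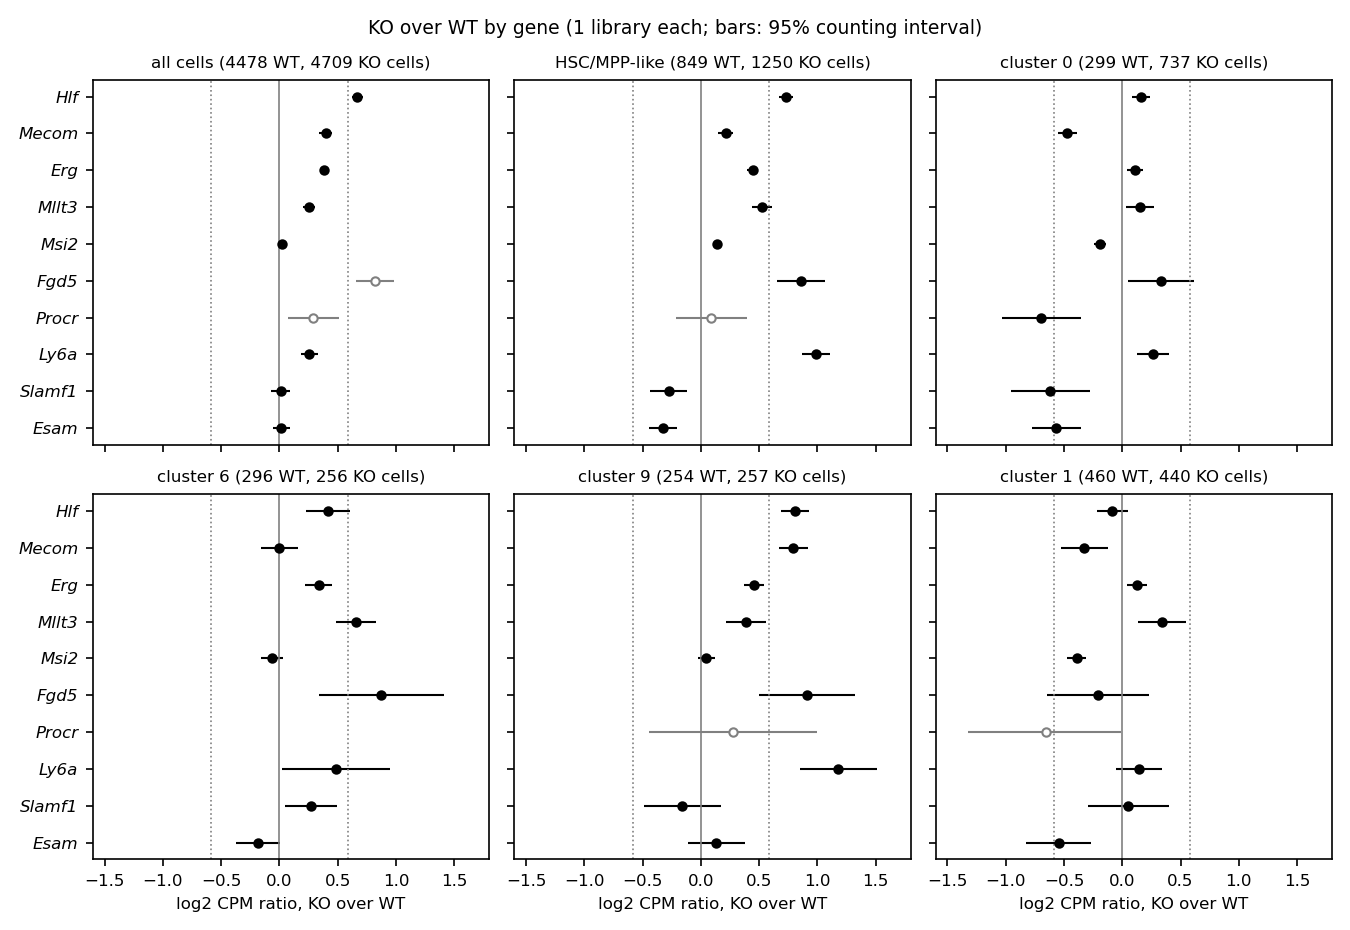
Log2 ratio of CPM, KO over WT, for each gene in all cells, in HSC/MPP-like cells, in its clusters 0, 6 and 9, and in cluster 1; bars are 95% counting intervals, dotted lines mark 1.5-fold, open grey points lie under 10 CPM and genes with under 20 UMIs are not drawn. Ly6a, Hlf and Fgd5 lie right of the upper line in HSC/MPP-like cells, and in cluster 0 no gene does while Procr and Slamf1 lie left of the lower line.

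The 3 clusters of the class did not share 1 pattern. In cluster 0, 0 of 10 genes were 1.5-fold higher in KO (3.49% of genes were) and 2 were lower (2.25% of genes were). These were Procr, from 23.9 to 14.8 CPM (log2 -0.70, -1.03 to -0.35), and Slamf1, from 23.7 to 15.5 (-0.62, -0.95 to -0.28). Esam (-0.56) and Mecom (-0.47, 358 to 259 CPM) were also lower there, while Hlf (0.16), Erg (0.11), Mllt3 (0.15), Fgd5 (0.33) and Ly6a (0.26) were slightly higher. In cycling cluster 9, 4 of 9 genes were 1.5-fold higher (3.69% of genes were) and 0 lower (1.79% were). The 4 were Ly6a (1.18), Fgd5 (0.91), Hlf (0.81) and Mecom (0.79, 99.8 to 173 CPM). In cluster 6 it was Fgd5 (0.87) and Mllt3 (0.66), 2 of 9 (3.45% of genes were), and 0 were lower (1.43% were). Fgd5 lay under 10 CPM in WT in clusters 9 (9.58) and 6 (8.58). In both it was tested only through its KO level (17.97 and 15.7 CPM). In cluster 1, 0 of 9 genes passed 1.5-fold upward (2.72% of genes did) or downward (1.55% did), and Esam (-0.54), Msi2 (-0.39) and Mecom (-0.32) were lower by less.

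Cells of cluster 0 fell into unlike groups at a finer resolution of 2, in proportions that differed between libraries. A group led by Dlk1 took 183 WT and 216 KO cells of cluster 0 (61.2% and 29.3% of it), and a group led by Ror1 took 74 and 333 (24.7% and 45.2%). The Dlk1-led group also drew 22.8% of its WT and 8.86% of its KO cells from outside cluster 0, so the values here are those of the cells in common. Mecom had levels of 455 and 452 CPM in the Dlk1-led cells of WT and KO (log2 -0.0097, -0.11 to 0.09) and at only 107 and 139 in the Ror1-led cells (0.38, 0.10 to 0.66), against -0.47 in cluster 0 as a whole. Mecom was thus not lower by its interval in either set of cells, and the set with less Mecom made up more of cluster 0 in KO than in WT. The cells of cluster 0 outside both sets, a larger share of it in KO than in WT, were not examined apart. The 2 sets therefore do not cover all cells behind the Mecom and Slamf1 ratios of cluster 0. Slamf1 gave 29.4 and 30.1 CPM in the Dlk1-led cells (0.03, -0.36 to 0.43) and 8.41 and 7.10 in the Ror1-led cells, the latter from 10 WT and 35 KO UMIs. In the Dlk1-led cells Hlf went from 387 to 559 CPM (0.53, 0.43 to 0.63), Mllt3 from 176 to 271 (0.62), Ly6a from 117 to 152 (0.38) and Fgd5 from 30.2 to 41.4 (0.45). Hlf in the Ror1-led cells stood at 327 and 329 CPM (0.01, -0.15 to 0.17). Esam (-0.27, -0.54 to 0.0015) and Procr (-0.43, -0.89 to 0.03) in the Dlk1-led cells had intervals that reach 0. Apart from cluster 0, a finer group led by Gimap6 with 241 WT and 101 KO cells, of which 14 and 0 lay in cluster 0, held 59 Procr UMIs in WT and 7 in KO (-1.52, -2.90 to -0.39). The finer groups were chosen for display after the values of cluster 0 were seen.

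In the committed classes below, 3 to 7 of the 10 genes reached 10 CPM, and those that did moved in different ways. In megakaryocyte-like cells 1 of 7 genes was 1.5-fold higher in KO (2.36% of genes were), Erg (12.5 to 27.9 CPM, log2 1.16), and 1 was lower (2.22% were), Mecom (33.7 to 18.9 CPM, -0.83, -1.20 to -0.47). Cluster 19 (62 WT and 51 KO cells) supplied 158 of the 181 WT and 76 of the 99 KO Mecom UMIs of this class. In unnamed cluster 3, which carries megakaryocyte markers, Mecom was not lower in KO. It held 272 of 7348351 UMIs there in WT and 236 of 6129662 in KO. Slamf1 (0.15) and Esam (0.23), which peak in these cells, were under 1.5-fold there. In erythroid-like cells 2 of 4 were higher (7.62% of genes were), Erg (17.6 to 33.8 CPM, 0.94) and Slamf1 (29.9 to 47.3 CPM, 0.66), and 0 lower (0.864% were). In basophil or mast cell-like cells 2 of 5 were higher (8.03% were), Ly6a and Mllt3 (58.6 to 127 CPM, 1.12), and 0 lower (5.38% were). There Ly6a lay under 10 CPM in WT (19 UMIs) and was tested only through its KO level (76 UMIs). Monocyte-like cells had 0 of 3 higher (1.21% were) or lower (0.58% were), and maturing neutrophil-like cells 0 of 3 higher (1.64% were) or lower (1.57% were). B cell-like cells had 3 of 6 higher (17.3% were) and 0 lower (19.9% were), with only 66 WT and 51 KO cells behind them. Among the 3, Hlf (0 WT and 14 KO UMIs) and Mecom (1 and 6) were tested only through their KO level.

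Ly6a and Msi2 kept 1 direction across most lineages, and both were singled out after their values were seen. Ly6a was higher in KO in 9 of 9 clusters where it reached 10 CPM, with 7 intervals above 0 and a median of 0.89. Of genes tested in at least as many clusters, 0.961% were higher in as large a share. A gene tested in more than 9 clusters had to be higher in all of them, a harder bar than 9 of 9. The share for genes tested in 9 clusters alone was not computed. The 9 clusters included basophil or mast cell-like cells (9.60 to 53.2 CPM, log2 2.47, 1.73 to 3.28), and the Gzma-led cluster 17 (57.9 to 107 CPM, 0.89). The minimum applies to the mean of both libraries, and in basophil or mast cell-like cells Ly6a reached it only through KO. Msi2 was lower in KO in 18 of 20 clusters, with 13 intervals below 0, 1 above and a median of -0.24, where 3.68% of genes were lower in as large a share. It went from 443 to 338 CPM in cluster 1, from 70.2 to 57.3 in monocyte-like cells and from 1022 to 816 in cluster 14. Erythroid-like cells were the exception with an interval above 0 (113 to 140.3 CPM, 0.32). Mllt3 was higher in 15 of 19 clusters and Erg in 15 of 18.

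Because the cluster proportions differ, each gene was also computed with WT levels placed on the KO proportions and with KO levels placed on the WT proportions. The KO library has no plasma cell-like cells, so on the WT proportions their WT level stood in for the missing KO level. This weighs most on Ly6a, for which these cells supplied 41.1% of the WT UMIs. For Mecom the KO proportions alone gave 0.56, above the observed 0.40, and the levels within clusters gave -0.0039. For Hlf the 2 values were 0.49 and 0.20, and for Procr 0.63 and -0.24. For Msi2 they were 0.20 and -0.14, on opposite sides of the observed 0.02. Mllt3 (-0.04 and 0.31), Slamf1 (-0.11 and 0.24) and Ly6a (-0.24 and 0.36) had the opposite make-up, with higher levels within clusters and proportions that lower them. The Ly6a value depends on the 53 plasma cell-like cells of WT: without them its ratio over all cells was 1.00 in place of 0.26, and without cluster 0 it was -0.27. Cluster proportions come from 1 sorted sample per genotype and from clustering both libraries together, so they can move with any gene that differs between the libraries.

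**Figure D5:**
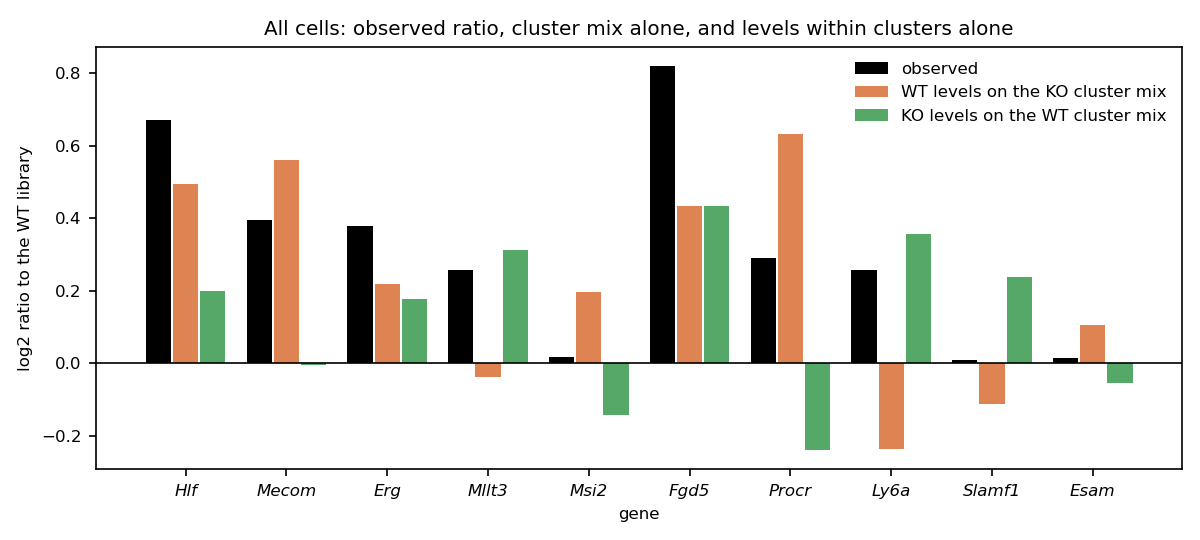
For each gene, the log2 ratio to the WT library over all cells as observed (black), with WT levels on the KO cluster proportions (orange) and with KO levels on the WT proportions (green). In green, plasma cell-like cells, which KO lacks, keep their WT level. Orange exceeds green for Hlf, Mecom and Procr, and green exceeds orange for Mllt3, Ly6a and Slamf1.

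Other genes of the stem cell programme were read from 8 lists beside the 10 genes. Of 15 further transcription regulators of stem cells tested over all cells, Zfp521, a zinc finger factor, was 1.5-fold higher in KO (26.3 to 40.9 CPM, log2 0.64) and 0 were lower, where 2.04% of all genes tested were higher and 1.25% lower. At the other end stood Hoxa9 (-0.31), Gfi1b (-0.25) and Lmo2 (-0.04), and the median was 0.13. Of 13 surface proteins, 4 were higher, among them the cytokine receptor Flt3 (0.90), the adhesion receptor Adgrl4 (0.75) and endoglin, Eng (0.61). Within HSC/MPP-like cells Flt3 (1.30), Cd244a (0.77), Adgrl4 and Eng were among those higher and the tetraspanin Cd9 lower (-0.68, 226 to 141 CPM), where 4.22% of all genes were higher and 1.42% lower. In the quiescence list 0 of 9 genes passed 1.5-fold in all cells, with Cdkn1a at 0.26 and Egr1 at -0.50. Among the MLL and elongation cofactors that work with Mllt3, 0 of 12 passed, with Kmt2a at 0.32 and Ell2 at -0.38. A further list held self-renewal regulators chosen mainly for RNA binding or RNA modification. Of these 0 of 5 passed, with Hmga2 at 0.25 and Syncrip at -0.08. Over all cells, the PAR bZIP relatives of Hlf (Dbp, Tef and Nfil3) lay under 10 CPM.

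Ly6a is induced by interferon, and interferon response genes were listed for that reason. Of 22 such genes tested over all cells, 15 were 1.5-fold higher in KO (2.04% of all genes were) and 0 lower (1.25% were), with a median of 0.85 against 0.06 over all genes, led by Iigp1 (2.60), Ifi204 (1.21) and Oasl2 (1.15), and ending with Ifi47 (0.21). In HSC/MPP-like cells it was 18 of 22 (4.22% of all genes were, median 0.92) and in cluster 0, 17 of 23 (3.49% were, median 0.81), where Ly6a itself gave 0.26. Lymphoid priming genes were higher too, 3 of 5 over all cells (2.04% of all genes were), namely Dntt (2.01), Flt3 (0.90) and Satb1 (0.83), and 4 of 4 in HSC/MPP-like cells (4.22% were). Their part in the levels of Ly6a and the other stem cell genes was not tested.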

How the data were processed

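Single-cell RNA was measured in 1 WT and 1 KO library of sorted GFP+Lin- mouse marrow cells. The authors deposited UMI counts per gene and cell barcode, not normalised. Per the file headers the counts were written by Cell Ranger 6.0.2, but Cell Ranger 3.0.1 and build GRCm38 stand in the submitters' processing notes. The gene annotation was not given in the sources used here. For positions, 32158 of the 32285 gene IDs were matched to GENCODE M21.

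Barcodes with under 500 genes (51 WT, 32 KO) or over 10% mitochondrial UMIs (553, 314) were left out, as were the highest Scrublet scores at 0.8% per 1000 barcodes (224, 221). Scrublet's own threshold marked 8 and 87 and was not used. Of the kept cells, 7 barcodes occurred in both libraries. Both libraries were clustered together with scanpy 1.11.5 (2000 variable genes without the 10 genes, 30 principal components, 15 neighbours, Leiden resolution 1). A class name needed a median marker log2 fold of 1, 3 markers each in 25% of cells, and a top 10 not dominated by markers of a different class. UMIs were summed per library and group and scaled to CPM. Levels have exact Poisson, shares exact Clopper-Pearson and ratios exact conditional binomial intervals, all at 95% and for counting error only. No test between genotypes was possible, since cells are not replicates. Ratios were counted at 1.5-fold for genes at 10 CPM or more as the mean of both libraries, so a gene could pass through 1 library alone. Thinning to 5000 UMIs left out shallower cells (243 WT, 199 KO). The ratio and pair calculations were tested on simulated data.

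The 10 genes, the lists, the markers and the motifs were chosen with earlier results of these data known. Named genes were the 10 genes, Phf6 and Runx1, up to 3 highest and 3 lowest of each list, and the closest profiles over clusters of at least 50 cells. Alternatives were edgeR 4.0.16 TMM factors, a median of ratios (DESeq2 1.42.0), means per cell, stricter cell filters (1000 genes, 5% mitochondrial), doublets kept, weighting classes or clusters alike, other CPM minimums, other resolutions, Seurat 5.3.0 integration, marker scores per cell and other depths. Vector reads and sequence variants were not analysed here, and 1 gene of the surface protein list is not reported here.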

Additional observations from a re-analysis of the deposited data

Results flagged for a closer look

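Mecom differed in direction between 2 clusters of the HSC/MPP-like class. Its log2 ratio of KO over WT was 0.79 in cycling cluster 9 and -0.47 in cluster 0. In the cells of cluster 0 that fell into the finer Dlk1-led and Ror1-led groups the ratio was -0.0097 and 0.38. The other cells of cluster 0 were not examined apart. Slamf1 likewise gave 0.27 in cluster 6 and -0.62 in cluster 0. With 1 library per genotype neither difference was tested. Both are listed because the counting intervals of the clusters lie on opposite sides of 0.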

How the results depend on the processing

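The count of genes at least 1.5-fold higher in KO over all cells was 1. It was 2 with classes weighted alike, 2 without a CPM minimum and 0 with clusters weighted alike. Of alternatives chosen after seeing the data, leaving out plasma cell-like cluster 22 gave 2, leaving out cluster 0 gave 0, and levels within clusters on the WT or the KO proportions gave 0 and 0. TMM factors, a median of ratios, means per cell, a stricter filter, doublets kept and a minimum of 50 CPM each gave 1. In HSC/MPP-like cells the count of 3 was 0 with clusters weighted alike and 2 or 3 under the other alternatives; the count of lower genes was 1 without cluster 9 and 0 otherwise. Over the alternatives in all cells, Hlf ranged from 0.18 to 0.74, Mecom from -0.16 to 0.44 and Ly6a from -0.27 to 1.00, and in HSC/MPP-like cells Hlf from 0.36 to 0.72, Mecom from -0.09 to 0.49 and Ly6a from 0.40 to 0.96. The share of HSC/MPP-like cells with at least 5 genes rests on depth: 65.6% in WT and 71.0% in KO without thinning, 44.4% and 58.1% at 10000 UMIs, and 40.6% and 43.4% for at least 2 UMIs a gene. Of the 10 closest profiles, 5 were shared with Spearman correlation and 6 at resolution 2. No paired analysis was possible because each genotype has 1 library without a replicate number. No replicate could be left out for the same reason.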
